A study of Mus musculus with 12 samples.

Results

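The vacuolar proton pump, or V-ATPase, was followed through 10 of its subunit genes in the immortalised mouse microglial line BV2, after expression of the transcription factor gene Spi1 had been lowered or raised. The 10 genes were taken by symbol from the 24062 gene entries of each deposited expression table: 5 encode subunits of the V0 sector, which sits in the membrane (Atp6v0d1, Atp6v0d2, Atp6v0a1, Atp6v0b and Atp6v0c), and 5 encode subunits of the V1 sector, which sits in the cytosol (Atp6v1a, Atp6v1b2, Atp6v1c1, Atp6v1d and Atp6v1h). All 10 were found, and all 10 were above the limit of 1 FPKM (reads scaled to the length of the gene in kilobases and to the total of the library in megareads) that a gene needed to be tested.

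The V-ATPase is a rotary enzyme that spends ATP to move protons into lysosomes, endosomes and other compartments. The V1 sector binds and hydrolyses ATP and turns a central shaft, and the shaft turns a ring of V0 proteins past the fixed a subunit, where protons cross the membrane. In macrophages and microglia the acid made by the pump lets lysosomal enzymes digest engulfed material, and in osteoclasts, which are relatives of macrophages, the pump also acidifies the bone surface.

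Of 4 groups with 3 libraries each, 2 belonged to the lowering experiment: BV2 cells with a transient short hairpin RNA against Spi1 (knockdown), set against cells with a scrambled control. The other 2 belonged to the raising experiment: BV2 cells with transient overexpression of a mouse Spi1 cDNA, set against cells with an empty control. All cells were sorted by flow cytometry before polyA RNA was extracted, and the sources used here do not give the hairpin, the vectors, the sort gate or the time after transfer. All libraries come from 1 cell line, and separate cultures are not stated for the libraries of 1 group, so the p-values speak for the spread among these libraries only, and that spread may be technical. In bulk RNA a smaller share of cells that express a gene and less of its RNA per cell cannot be told apart.

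Spi1, which encodes PU.1, had 50.9, 42.4 and 52.3 FPKM in knockdown libraries, against 159, 169 and 168 FPKM in scrambled controls. It had 287, 224 and 206 FPKM in overexpression libraries, against 158, 117 and 131 FPKM in empty controls, so the groups were apart in the labelled direction in both experiments, although the overexpression contrast missed the threshold (limma on log2(FPKM + 1), log2 fold change 0.81, Benjamini-Hochberg adjusted p = 1.0, and 0.0357 with the library number as a block). Depth, recovered from the steps in the values, was 22.3 to 33.1 M reads (megareads) on genes per library. The macrophage label of the line was checked against its markers: 9 of 10 macrophage and microglia genes passed the filter, and their summed level was 2780 to 3593 FPKM in knockdown, 4293 to 5130 FPKM in scrambled controls, 4347 to 5860 FPKM in overexpression and 3914 to 5344 FPKM in empty controls. The largest part of the gap between knockdown and scrambled controls was Lyz2, with a mean of 1197 FPKM in knockdown and 2387 FPKM in scrambled controls. Cx3cr1, a defining receptor of microglia, was below 1 FPKM in every library. Markers of neurons, astrocytes and oligodendrocytes (9 genes), fibroblasts (5 genes) and lymphocytes (5 genes) were all below 1 FPKM in every library. Of 7 osteoclast markers, Calcr was at 0 in every library and Ctsk at a mean of 432 FPKM in knockdown and 842 FPKM in scrambled controls.

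Promoter windows are shown for the 5 genes that hold either of a pair of known motifs, so that they can be read beside the values that follow. They run 5′ to 3′ on the gene's own strand from 250 bases before to 50 bases after the annotated start (RefSeq, GRCm38.p6), and 6 of the 10 genes had a window in the table used. Capitals mark CACGTG, the E-box core found in the CLEAR element that the TFEB and TFE3 family of lysosomal regulators is known to bind, and GAGGAA, a core of sites that PU.1 is known to bind. Atp6v0d1 (chr8:105566015-105566314, minus strand), Atp6v0b (chr4:117887280-117887579, minus strand) and Atp6v1a (chr16:44139210-44139509, minus strand) carry the E-box core. Atp6v0a1 (chr11:101010148-101010447, plus strand) and Atp6v1d (chr12:78861589-78861888, minus strand) carry GAGGAA and no CACGTG, and in Atp6v0a1 it is printed as TTCCTC because it lies on the opposite strand. Atp6v0c, with 3 windows, carries neither. The windows of Atp6v1a, Atp6v0a1 and Atp6v1d lie wholly inside the gene spans given below. In these genes the annotated start used is therefore not the outermost one.
Atp6v0d1: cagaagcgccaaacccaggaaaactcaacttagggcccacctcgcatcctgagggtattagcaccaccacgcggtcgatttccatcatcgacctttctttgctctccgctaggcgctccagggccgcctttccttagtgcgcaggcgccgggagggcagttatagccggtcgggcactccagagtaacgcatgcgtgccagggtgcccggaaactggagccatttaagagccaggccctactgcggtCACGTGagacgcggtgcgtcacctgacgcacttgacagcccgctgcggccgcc
Atp6v0b: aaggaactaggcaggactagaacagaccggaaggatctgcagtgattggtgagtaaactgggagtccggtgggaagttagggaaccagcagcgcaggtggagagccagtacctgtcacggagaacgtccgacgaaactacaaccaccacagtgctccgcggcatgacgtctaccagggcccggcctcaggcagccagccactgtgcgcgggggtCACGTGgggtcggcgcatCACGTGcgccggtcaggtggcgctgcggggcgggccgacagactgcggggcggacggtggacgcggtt
Atp6v1a: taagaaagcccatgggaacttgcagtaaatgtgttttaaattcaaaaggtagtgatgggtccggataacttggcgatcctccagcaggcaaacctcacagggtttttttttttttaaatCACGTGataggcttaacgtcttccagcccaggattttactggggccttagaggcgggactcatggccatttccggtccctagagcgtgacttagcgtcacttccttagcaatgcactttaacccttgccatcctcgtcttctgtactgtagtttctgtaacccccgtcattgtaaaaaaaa
Atp6v0a1: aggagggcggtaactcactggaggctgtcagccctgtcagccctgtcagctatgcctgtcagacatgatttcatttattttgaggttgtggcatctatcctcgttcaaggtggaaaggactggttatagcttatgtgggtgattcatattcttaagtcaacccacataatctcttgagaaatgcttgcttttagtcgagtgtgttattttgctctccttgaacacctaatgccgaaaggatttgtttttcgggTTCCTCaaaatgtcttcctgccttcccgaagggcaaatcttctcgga
Atp6v1d: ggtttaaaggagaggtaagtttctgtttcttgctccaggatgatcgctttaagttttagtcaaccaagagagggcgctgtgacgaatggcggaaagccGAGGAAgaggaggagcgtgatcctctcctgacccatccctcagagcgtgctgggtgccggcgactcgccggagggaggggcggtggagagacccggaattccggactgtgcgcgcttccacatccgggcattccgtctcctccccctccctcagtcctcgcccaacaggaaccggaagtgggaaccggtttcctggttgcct

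Both strands were searched, and CACGTG reads the same on either strand. Counting the base before the start as -1 and the start itself as 1, the first base of CACGTG lay at -3 in Atp6v0d1, at -36 and -18 in Atp6v0b and at -131 in Atp6v1a. CACGTG was present in 3 of the 6 subunit genes with a window (Atp6v0d1, Atp6v0b and Atp6v1a), and in 8.09% of the 27025 genes in the table. Among 13 other subunit and accessory genes of the pump, only Atp6v0e had it. The longer GTCACGTG, which contains CACGTG, was present in Atp6v0d1 and Atp6v0b and in 2.55% of genes. GAGGAA was present in Atp6v0a1, on the opposite strand with its first base at 4, and in Atp6v1d at -152, which is 2 of 6 genes against 31.3% of genes in the table. Among the 13 other subunit and accessory genes, 3 had GAGGAA: Atp6v0e2, Atp6v1g3 and Tcirg1. In Tcirg1 its first base lay at -16 and, on the opposite strand, at 17. GAGGAAGT, which contains GAGGAA, was in none of the 6, in none of the 13 and in 3.69% of genes. A match is a run of letters in a window and was not tested as a binding site.

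**Figure D1:**
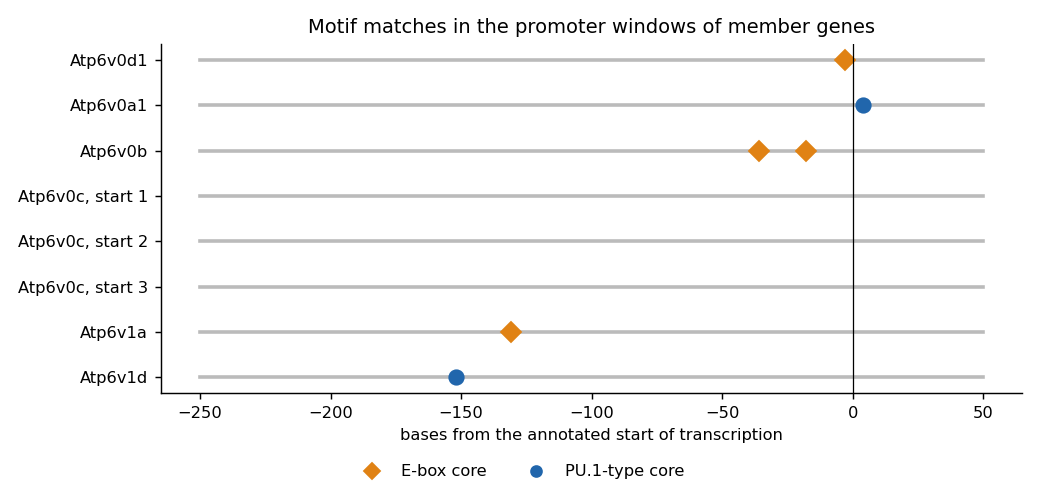
Each grey line is the promoter window of a subunit gene with a RefSeq window, drawn in bases from the annotated start of transcription, with 3 windows for the 3 annotated starts of Atp6v0c. Orange diamonds are E-box cores and blue circles PU.1-type cores: the E-box core is seen in 3 genes, Atp6v0d1, Atp6v0b and Atp6v1a, and nearest the start in Atp6v0d1.

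The genes differed widely in level, and FPKM, being per length, allows them to be set side by side. In the scrambled controls Atp6v0c, the small proteolipid that makes up most of the rotating ring, was highest at 550 ± 29.7 FPKM (SD, n = 3), followed by Atp6v0b, another ring proteolipid, at 350 ± 13.1 FPKM. The next were Atp6v1a, the catalytic A subunit that hydrolyses ATP, at 312 ± 10.1 FPKM, and Atp6v1b2, the B subunit that sits between the catalytic ones, at 241 ± 1.81 FPKM. Atp6v0d1, the d subunit that couples the shaft to the ring, was at 163 ± 13.1 FPKM, Atp6v1c1, a C subunit of the outer stalk, at 146 ± 5.45 FPKM, Atp6v1h, the H subunit that restrains free V1, at 105 ± 11.1 FPKM and Atp6v1d, the D subunit of the shaft, at 97.5 ± 5.45 FPKM. Lowest were Atp6v0a1, an isoform of the a subunit, at 32.0 ± 1.13 FPKM, and Atp6v0d2, the alternative d isoform, known from osteoclasts and macrophages, at 15.5 ± 4.07 FPKM. In this order only Atp6v1h and Atp6v1d overlapped over the 3 libraries.

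The order was nearly the same in the other groups, with a few exchanges between neighbours. In knockdown Atp6v1b2 stood at 228 ± 1.90 FPKM and Atp6v1a at 227 ± 0.850 FPKM (SD, n = 3 each), with overlapping ranges, whereas the scrambled controls had Atp6v1a above Atp6v1b2 in all libraries. Atp6v0d1 was at 108 ± 1.94 FPKM in knockdown, which is below Atp6v1c1 at 130 ± 5.63 FPKM and overlaps Atp6v1h at 104 ± 10.6 FPKM, whereas in scrambled controls it was above both. The reads behind a value ran from 518 for Atp6v0d2 to 35584 for Atp6v1a in a library. The reads of Atp6v0c, 13048 to 22478 per library, differed by 0 to 10 from those listed for the pseudogene Atp6v0c-ps2 in each library, so the 2 entries cannot be told apart and the level of Atp6v0c is uncertain.

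**Figure D2:**
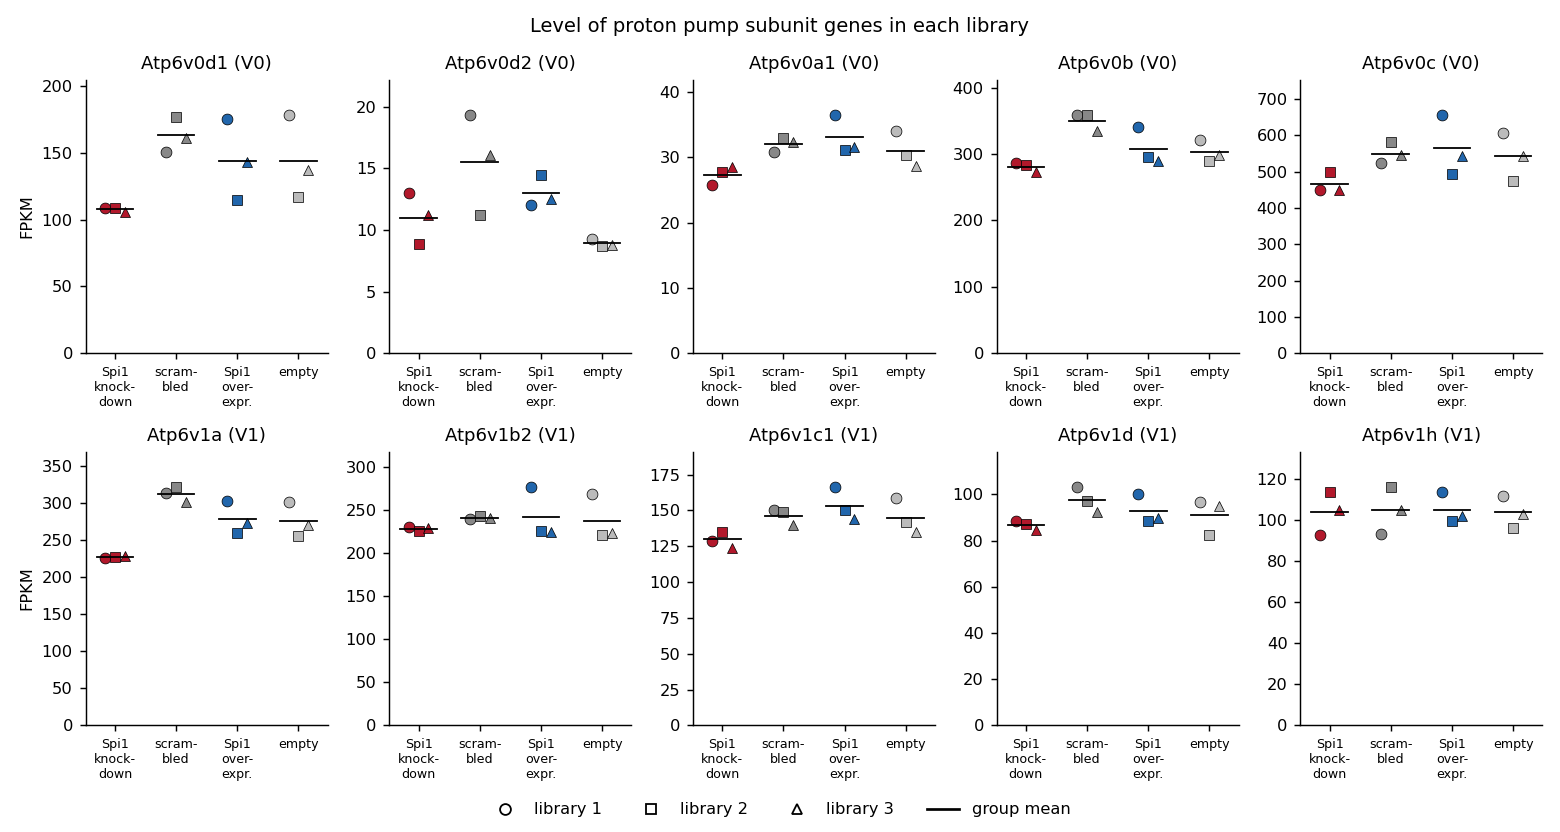
FPKM of each of the 10 subunit genes in every library, V0 genes in the upper row and V1 genes in the lower row, with 1 point per library, its shape giving the library number and the bar giving the group mean. Knockdown points lie below all scrambled points for 8 of the 10 genes, all except Atp6v0d2 and Atp6v1h, and the overexpression points overlap the empty controls for every gene but Atp6v0d2.

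In Spi1 knockdown 5 of the 10 subunit genes fell and none rose. Of the 5 V0 genes, 4 fell, and Atp6v0d1 fell by 33.8%. Of the 5 V1 genes, 1 fell, the catalytic Atp6v1a, which fell by 27.2%. The log2 fold change was below 0 for all 10 genes, with a median of -0.32 over the V0 genes and -0.17 over the V1 genes, beside 0.07 over all genes tested; the difference between the sectors was not tested. The test was limma on log2(FPKM + 1) over the 6 libraries of the experiment with Benjamini-Hochberg adjustment over 11214 genes, and it called 8.86% of those genes lower and 17.4% higher. Scaling the libraries by median of ratios instead called 1454 genes lower (13.0%) and 1251 higher (11.2%), against 993 lower and 1952 higher without it. It added Atp6v1c1 and Atp6v1d to the V1 genes that fell. With limma-voom on recovered reads 4 V0 and 3 V1 genes were called lower, and with the library number as a block 5 V0 and 3 V1 genes. Over all genes tested 14.5% and 14.7% were called lower in that order. The split of 4 V0 to 1 V1 genes was thus not kept under these alternatives. The 3 knockdown libraries were all below the 3 scrambled controls for 8 of the 10 genes, as they were for 15.1% of all genes tested.

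Atp6v0d1 (chr8:105524461-105566064, minus strand, GRCm38, position from RefSeq) had 109, 109 and 106 FPKM in knockdown, against 151, 177 and 161 FPKM in scrambled controls. The knockdown libraries lay close together and well under the lowest control. Its log2 fold change was -0.59 ± 0.0734 (SE, limma, adjusted p = 0.00360), with a 95% interval from -0.76 to -0.42.

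Its isoform Atp6v0d2 (chr4:19876838-19922566, minus strand) had 13.0, 8.85 and 11.2 FPKM in knockdown, against 19.3, 11.2 and 16.1 FPKM in scrambled controls. The groups overlapped, and the library numbered 2 was the lowest of both groups. The log2 fold change of -0.45 ± 0.199 (SE, 95% interval -0.91 to 0.02) did not pass in limma (adjusted p = 0.138). Every knockdown library was below the scrambled control of the same number, and with that number as a block the gene passed (limma, adjusted p = 0.00656). Its fold change moved with single libraries: it was -0.65 without scrambled control 2 (limma, adjusted p = 0.0349), -0.28 without scrambled control 1 (0.330) and -0.31 without knockdown 2 (0.327), and it passed in limma in only the first of the 6 omissions. Atp6v0d2 came to 10.2% ± 1.92 of the Atp6v0d1 level in knockdown and 9.70% ± 3.22 in scrambled controls (SD, n = 3 each), a difference within the spread of the libraries.

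The ring proteolipid Atp6v0b (chr4:117884330-117887333, minus strand) had 286, 283 and 273 FPKM in knockdown, against 358, 358 and 335 FPKM in scrambled controls. Its log2 fold change was -0.32 ± 0.0607 (SE, limma, adjusted p = 0.0110). Its exons overlap those of the antisense gene Gm12841 by 243 bases, and since the kit does not mark strand, reads from that stretch cannot be assigned to either. Atp6v0c (chr17:24163865-24169678, minus strand) had 449, 500 and 450 FPKM in knockdown, against 524, 583 and 545 FPKM in scrambled controls, and Atp6v0a1 (chr11:101009422-101063719, plus strand) had 25.7, 27.7 and 28.5 FPKM in knockdown, against 30.8, 32.9 and 32.3 FPKM in scrambled controls. In both genes the groups were apart by a narrow gap. The log2 fold change was -0.24 ± 0.0738 for Atp6v0c (SE, limma, adjusted p = 0.0499) and -0.22 ± 0.0664 for Atp6v0a1 (SE, limma, adjusted p = 0.0457). These calls sit at the threshold: leaving out any 1 of the 6 libraries moved the adjusted p to 0.0513 to 0.149 for Atp6v0c and to 0.0583 to 0.130 for Atp6v0a1, while Atp6v0d1, Atp6v0b and Atp6v1a passed each time.

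Among the cytosolic genes, Atp6v1a (chr16:44085402-44139702, minus strand) had 226, 227 and 228 FPKM in knockdown, against 314, 321 and 301 FPKM in scrambled controls. The 3 knockdown values were nearly equal and far from the controls. The log2 fold change was -0.46 ± 0.0576 (SE, limma, adjusted p = 0.00365), with a 95% interval from -0.59 to -0.32. Its partner in the ATP-binding head, Atp6v1b2 (chr8:69088736-69113718, plus strand), had 230, 226 and 229 FPKM in knockdown, against 239, 243 and 241 FPKM in scrambled controls. Those groups were apart too, but by a small step: the log2 fold change was -0.08 with a 95% interval from -0.21 to 0.05 (limma, adjusted p = 0.319). The intervals of the A and B subunit genes did not overlap, and the difference between these genes was not tested.

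Atp6v1c1 (chr15:38661904-38692444, plus strand) had 129, 135 and 124 FPKM in knockdown, against 150, 149 and 140 FPKM in scrambled controls. Atp6v1d (chr12:78842982-78862008, minus strand) had 88.5, 87.2 and 84.6 FPKM in knockdown, against 103, 97.2 and 92.2 FPKM in scrambled controls. Both were lower in every knockdown library than in any control. Both had a log2 fold change of -0.17 and did not pass (limma, adjusted p = 0.0874 for Atp6v1c1 and 0.101 for Atp6v1d), and both passed with the library number as a block (limma, adjusted p = 0.0274 and 0.0336 in the same order). With that block 8 of the 10 genes passed, 5 in V0 and 3 in V1, where 14.7% of all genes tested were called lower. Atp6v1h (chr1:5082978-5163213, plus strand) had 92.9, 114 and 105 FPKM in knockdown, against 93.4, 116 and 105 FPKM in scrambled controls. Its libraries followed the number they share and not the group, with a log2 fold change of -0.01 and a 95% interval from -0.25 to 0.24 (limma, adjusted p = 0.960). Its exons overlap those of Rgs20 by 127 bases.

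**Figure D3:**
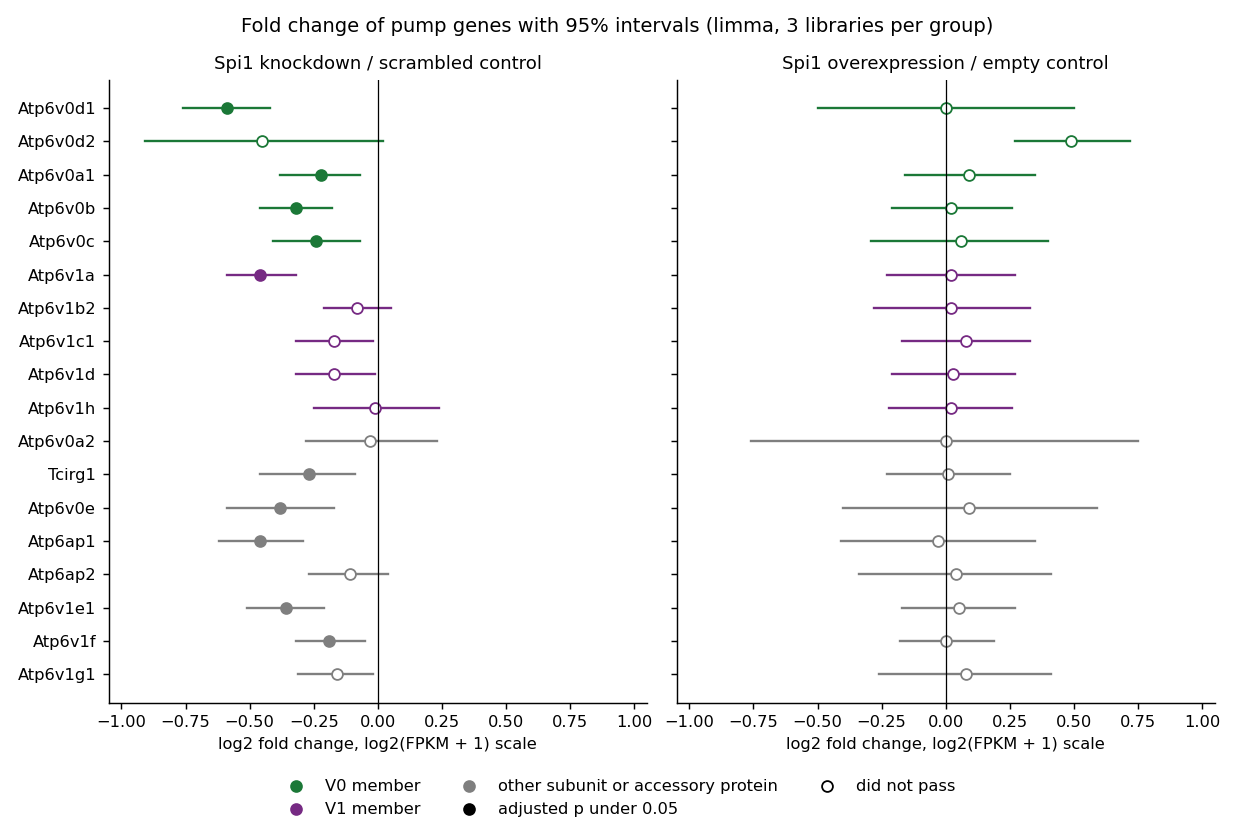
Log2 fold change of each subunit or accessory gene in Spi1 knockdown over scrambled control (left) and Spi1 overexpression over empty control (right), with 95% intervals from limma over 3 libraries per group; filled points passed an adjusted p of 0.05. On the left all 10 subunit genes followed here lie below 0 and 5 are filled, and on the right none is filled and only the interval of Atp6v0d2 lies clear of 0.

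The balance between the sectors was measured in each library as the mean log2(FPKM + 1) of the V0 genes minus that of the V1 genes. It was -0.69, -0.80 and -0.73 in knockdown, against -0.52, -0.62 and -0.52 in scrambled controls. Every knockdown library was below every control, and the group means were -0.74 ± 0.0574 in knockdown and -0.55 ± 0.0601 in scrambled controls (SD, n = 3 each), a difference of -0.19. Same-numbered libraries differed by -0.21 to -0.17. The mean of the V0 genes was 6.43 in knockdown and 6.80 in scrambled controls (difference -0.36) and that of the V1 genes was 7.17 in knockdown and 7.35 in scrambled controls (difference -0.18). Without Atp6v0d2, whose low level pulls the V0 mean down, the balance was -0.03 in knockdown and 0.14 in scrambled controls, a difference of -0.17.

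**Figure D4:**
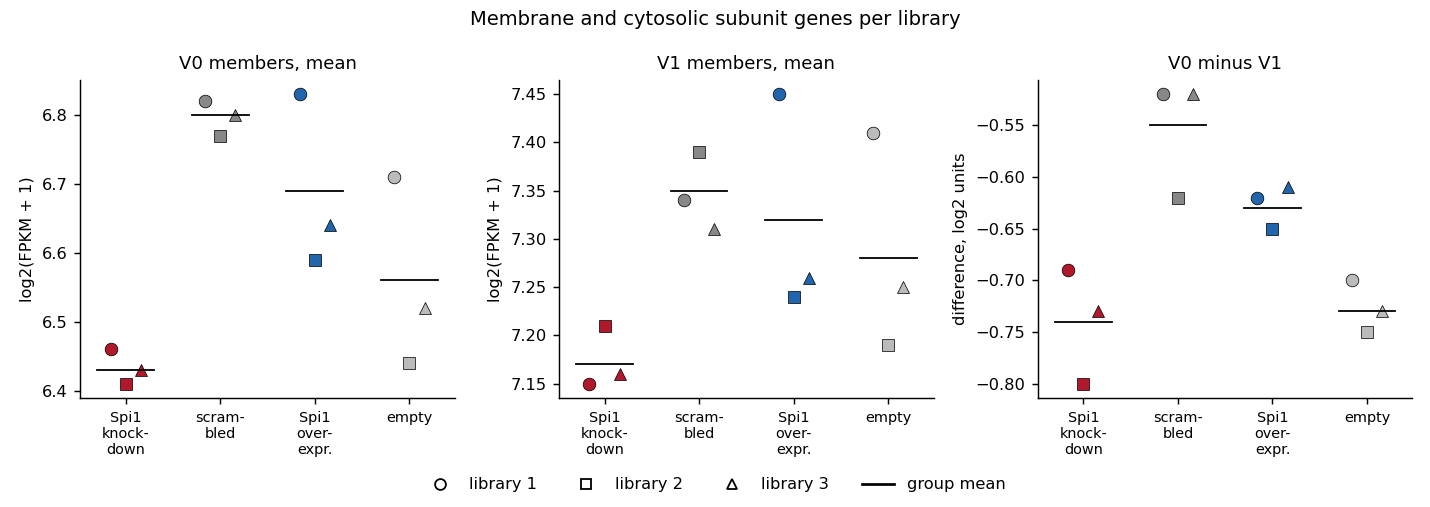
Mean log2(FPKM + 1) of the 5 V0 genes (left), of the 5 V1 genes (middle) and their difference (right) in each library, with 1 point per library, shapes giving the library number and bars the group means; the vertical axes do not start at 0. In the right panel the knockdown libraries, at -0.80 to -0.69, lie below the scrambled controls, at -0.62 to -0.52, and the overexpression libraries, at -0.65 to -0.61, lie above the empty controls, at -0.75 to -0.70.

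In Spi1 overexpression no subunit gene passed the test. Neither did any other gene: limma with Benjamini-Hochberg adjustment called 0 of 11217 genes (0%), with 122 genes (1.09%) at an unadjusted p under 0.05, of which Atp6v0d2 was the only subunit gene followed here. With limma-voom on recovered reads the count was also 0, and with the library number as a block it was 13 genes (0.116%), none of them among the 10. With that block 1577 genes (14.1%) had an unadjusted p under 0.05 in limma, 1 of them among the 10. The median log2 fold change was 0.06 over the V0 genes and 0.02 over the V1 genes, beside -0.01 over all genes tested. These medians changed sign with single libraries: they were -0.05 over V0 and -0.04 over V1 without overexpression 1, -0.01 and -0.03 in that order without empty control 2, and 0.16 and 0.08 without empty control 1.

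Atp6v0d2 had 12, 14.5 and 12.5 FPKM in overexpression, against 9.27, 8.71 and 8.78 FPKM in empty controls. It was the only 1 of the 10 genes whose groups did not overlap, a pattern (treated above control) that 1.66% of all genes tested had. The log2 fold change was 0.49 ± 0.0948 (SE, 95% interval 0.27 to 0.72; limma, unadjusted p = 0.00157, adjusted p = 1.0, and 0.115 with the library number as a block). Atp6v0d2 came to 9.41% ± 2.93 of the Atp6v0d1 level in overexpression and 6.35% ± 1.12 in empty controls (SD, n = 3 each). The groups overlapped, with 6.86%, 12.6% and 8.74% in overexpression, against 5.21%, 7.45% and 6.39% in empty controls, and each overexpression library was above the empty control of its number.

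Atp6v0d1 had 175, 115 and 143 FPKM in overexpression, against 178, 117 and 137 FPKM in empty controls. The libraries followed their numbers, high in 1 and low in 2, and the 95% interval of the log2 fold change ran from -0.50 to 0.50. Atp6v1a had 303, 260 and 273 FPKM in overexpression, against 302, 255 and 270 FPKM in empty controls, with an interval from -0.23 to 0.27. In the other 7 genes the log2 fold change lay between 0.02 and 0.09, and the intervals reached from -0.29 to 0.40 in Atp6v0c, the widest of these. Atp6v0c had 655, 493 and 544 FPKM in overexpression, against 607, 474 and 544 FPKM in empty controls. These intervals leave the shared library number out and are wide for that reason. With the number as a block the SE was 0.0408 instead of 0.208 for Atp6v0d1 and 0.0373 instead of 0.104 for Atp6v1a. For Atp6v0c it was 0.0420 instead of 0.143.

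The level ranges of the remaining genes overlapped in the same way. Atp6v0b lay between 289 and 340 FPKM in overexpression and between 290 and 321 FPKM in empty controls, and Atp6v0a1 between 31.1 and 36.4 FPKM in overexpression and between 28.6 and 34.0 FPKM in empty controls. Atp6v1b2 lay between 224 and 276 FPKM in overexpression and between 221 and 268 FPKM in empty controls, and Atp6v1c1 between 144 and 166 FPKM in overexpression and between 135 and 159 FPKM in empty controls. Atp6v1d lay between 88.7 and 100 FPKM in overexpression and between 82.4 and 96.5 FPKM in empty controls, and Atp6v1h between 99.7 and 114 FPKM in overexpression and between 96.3 and 112 FPKM in empty controls. In all 6 the library numbered 1 was the highest of its group, in overexpression and in empty controls alike. Atp6v0a1, Atp6v1b2 and Atp6v1c1 were higher in overexpression than in the empty control of the same number in all 3 pairs, and did not pass with the number as a block either.

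The balance of V0 minus V1 was -0.62, -0.65 and -0.61 in overexpression, against -0.70, -0.75 and -0.73 in empty controls, a difference of 0.10 with same-numbered libraries 0.08 to 0.12 apart. This difference came with Atp6v0d2: without that gene the balance was 0.09 in overexpression and 0.09 in empty controls, and same-numbered libraries differed by -0.03 to 0.03.

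The effects of the 2 manipulations were compared directly, as the overexpression effect minus the knockdown effect over all 12 libraries. The manipulations were opposite, so a gene that followed Spi1 in both would also show a difference. Atp6v1a was the only 1 of the 10 genes that passed, with a difference of 0.47 ± 0.113 on the log2 scale (SE, 95% interval 0.22 to 0.72; limma, adjusted p = 0.0406), where 1.90% of 11224 genes were called in that direction. The call was lost on leaving out any 1 of the 3 knockdown or 3 scrambled libraries, overexpression 1 or 3, or empty control 2 or 3, with adjusted p between 0.0255 and 0.110 over all 12 omissions. The difference was 0.94 for Atp6v0d2 (SE 0.245, 95% interval 0.40 to 1.48; limma, adjusted p = 0.0548) and 0.59 for Atp6v0d1 (SE 0.233, 95% interval 0.08 to 1.11; limma, adjusted p = 0.176). With the library number as a block 8 of the 10 genes passed, all but Atp6v1b2 and Atp6v1h, where 12.9% of genes were called higher. Median-of-ratios scaling added Atp6v0d2 and Atp6v0b to Atp6v1a. Among the 6 tested other pump subunit genes the stalk gene Atp6v1e1 passed, with a difference of 0.41 (limma, adjusted p = 0.0484), and with the block 5 passed, Tcirg1, Atp6v0e, Atp6v1f and Atp6v1g1 being added. The median difference was 0.34 over the V0 genes and 0.19 over the V1 genes, beside -0.09 over all genes tested.

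The controls of the 2 experiments were not at the same level, and they were deposited in separate tables, so levels across them are described and not tested. Scrambled controls were above empty controls in the mean of all 10 genes, by a median of 0.20 on the log2 scale over the V0 genes and 0.03 over the V1 genes. Set against the empty controls, knockdown had a median difference of -0.17 over the V0 genes and -0.07 over the V1 genes, and Atp6v0d2 stood 0.26 above them.

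Other parts of the pump were read from lists. Over all genes tested, 8.86% were called lower and 17.4% higher in knockdown. Of 13 other subunit genes, 6 passed the filter and 4 of these fell in knockdown. They were Tcirg1, the a3 isoform of lysosomes and osteoclasts, Atp6v0e, a small V0 subunit, and the stalk and shaft genes Atp6v1e1 and Atp6v1f. Tcirg1 had 231, 249 and 223 FPKM in knockdown, against 269, 309 and 273 FPKM in scrambled controls (log2 fold change -0.27, limma, adjusted p = 0.0400). Its mean level, 234 FPKM in knockdown and 284 FPKM in scrambled controls, was well above that of Atp6v0a1 in both groups. Atp6v1e1 had 133, 124 and 124 FPKM in knockdown, against 171, 159 and 160 FPKM in scrambled controls (log2 fold change -0.36, limma, adjusted p = 0.00884). Atp6v0e changed by -0.38 (adjusted p = 0.0224) and Atp6v1f by -0.19 (adjusted p = 0.0494) in limma. Atp6v1g1, at -0.16, and Atp6v0a2, at -0.03, did not pass, although Atp6v1g1 did with the library number as a block (limma, adjusted p = 0.0383). The other 7 subunit genes, among them the kidney isoforms Atp6v0a4 and Atp6v1b1, had a mean under 1 FPKM and were not tested.

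The accessory protein gene Atp6ap1, whose product assembles with V0, fell: it had 141, 138 and 125 FPKM in knockdown, against 183, 193 and 180 FPKM in scrambled controls (log2 fold change -0.46, limma, adjusted p = 0.00567). Atp6ap2, the other gene for an accessory protein, stood at -0.11 and did not pass (limma, adjusted p = 0.237). Of 7 genes for pump assembly factors, Wdr7, a partner of the factors that join V1 to V0, fell with a log2 fold change of -0.52 (limma, adjusted p = 0.00368). Tmem199, which works in assembly in the endoplasmic reticulum, rose with 0.26 (limma, adjusted p = 0.0496), a call that median-of-ratios scaling lost. Over all genes tested 8.86% were called lower and 17.4% higher, so the share of assembly factors that rose is not above that of all genes. None of 4 tested genes with a TLDc domain, some of which are known to regulate the pump, passed; Ncoa7, at -0.19, did with the library number as a block (limma, adjusted p = 0.0312) and is named after its values were seen.

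The MiT/TFE transcription factors, which are known to switch on lysosomal genes through the E-box shown above, did not move together. Tfe3 fell to a mean of 11.3 FPKM in knockdown, against 15.4 FPKM in scrambled controls (log2 fold change -0.41, limma, adjusted p = 0.00474), and Tfec to 2.16 FPKM in knockdown, against 4.21 FPKM in scrambled controls (log2 fold change -0.71, limma, adjusted p = 0.00786). Tfeb, at 0.27, and Mitf, at 0.06, did not pass, although Tfeb did with the library number as a block (limma, adjusted p = 0.0289). The Ragulator and Rag complex docks on the pump and signals amino acid supply to mTORC1. Where 8.86% of all genes tested were called lower, 3 of 10 tested genes for this complex or its partners fell. They were Rragc, a part of the complex, with -0.45, and the partner genes Fnip1 with -0.33 and Slc38a9 with -0.27 (limma, adjusted p = 0.00525, 0.00840 and 0.0209 in that order). The other 7 did not pass, although Flcn, at -0.19, and Lamtor5, at 0.22, did with the library number as a block (limma, adjusted p = 0.0305 and 0.0235 in that order).

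Of 11 genes for lysosomal ion channels and exchangers, some of which carry counter-ions of proton pumping, 5 fell and 2 rose. Over all genes tested 8.86% were called lower and 17.4% higher, so the share that rose is near that of all genes. Clcn7, the chloride-proton exchanger of lysosomes, fell with a log2 fold change of -0.36 (limma, adjusted p = 0.0166), and Ostm1, its partner subunit, fell with -0.77 (limma, adjusted p = 0.00177). Clcn3 fell with -0.59 and Mcoln2, a TRP-type cation channel, with -0.65 (limma, adjusted p = 0.00328 and 0.00511 in that order). The others, named after their values were seen, were Tpcn2, which fell with -0.37, and Tpcn1 and Clcn6, which rose with 0.32 and 0.25; the call of Clcn6 was lost under median-of-ratios scaling. With the library number as a block 7 fell and 3 rose, the added genes being Clcn4-2 (-0.28), Mcoln1 (-0.21) and Tmem175 (0.17). With that block 14.7% of all genes tested were called lower and 30.6% higher, so the share that rose here is near that of all genes. In overexpression none of the genes in these lists passed.

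**Figure D5:**
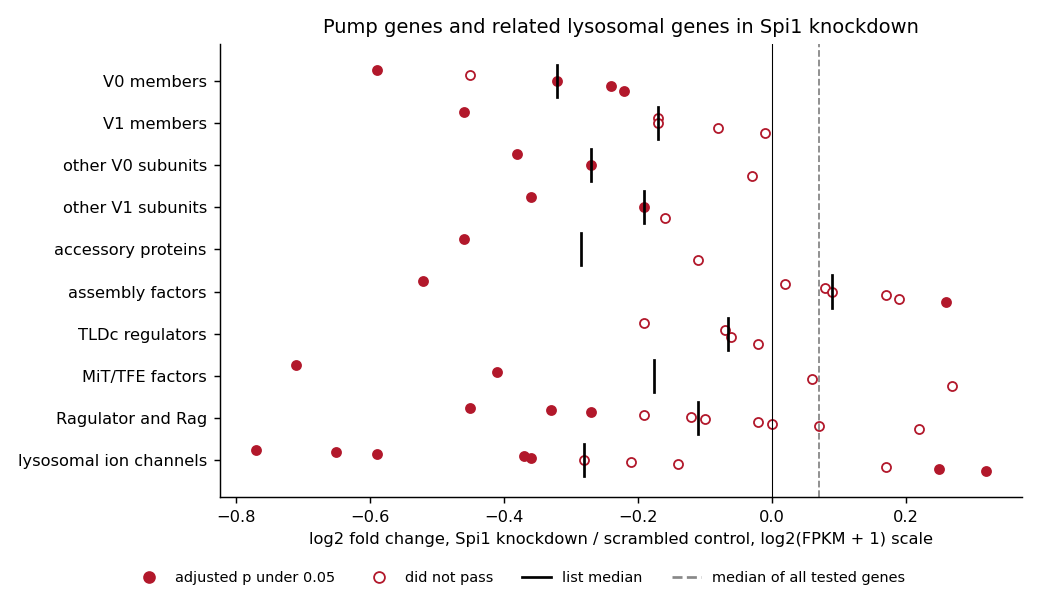
Log2 fold change in Spi1 knockdown over scrambled control for the V0 and V1 genes and for other pump and lysosomal lists, 1 point per tested gene, filled where the adjusted p was under 0.05, with the list median as a black bar and the median of all tested genes (0.07) as a dashed line. The V0 genes centre on -0.32 and the V1 genes on -0.17, with all points of the subunit lists below 0. The assembly factors centre on 0.09, near the median of all tested genes.

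Markers of the line itself moved in the same comparison. Of 9 tested macrophage genes 5 fell in knockdown and 1 rose, where 8.86% of all genes tested were called lower and 17.4% higher. The share that rose is thus not above that of all genes. Itgam fell with a log2 fold change of -1.12, Ptprc with -0.59 and Csf1r with -0.73, and Emr1, which encodes F4/80, rose with 0.74 (limma, adjusted p between 0.00201 and 0.00396). Lyz2 and Tyrobp also fell, and are named after their values were seen. Aif1, at -0.51, did not pass, but did with the library number as a block (limma, adjusted p = 0.0183). Cd68, a lysosomal membrane protein of macrophages, was at a mean of 634 FPKM in knockdown and 641 FPKM in scrambled controls, and Fcer1g, an Fc receptor chain, at 667 FPKM in knockdown and 705 FPKM in scrambled controls. The summed level of the 7 osteoclast markers, a class in which Atp6v0d2 is often counted, was 374 to 514 FPKM in knockdown and 799 to 915 FPKM in scrambled controls, and Ctsk made up nearly all of it, with 358 to 491 FPKM in knockdown and 778 to 897 FPKM in scrambled controls. Ctsk (-0.97) and Dcstamp (-0.71) fell (limma, adjusted p = 0.00360 and 0.00915 in that order), and Itgb3 (-0.25) and Mmp9 (-0.30) did not, but passed with the library number as a block. Ocstamp had a mean of 2.97 FPKM in knockdown and 2.54 FPKM in scrambled controls and Acp5 a mean of 0.955 FPKM in knockdown and 0.882 FPKM in scrambled controls. Whether the change in these markers has a part in the lower pump transcripts was not tested.

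Likeness to Atp6v0d1 was described by Pearson's r of log2(FPKM + 1) over the 12 libraries after subtracting the mean of each experiment, among 8778 genes whose mean reached 5 FPKM. These libraries share scaling, batch and group structure, and no p is attached. Among the most similar genes were Sppl2a, an intramembrane protease of lysosomes (0.995), Arpc4, an actin nucleation subunit (0.988), Tlr13, an endosomal receptor for bacterial RNA (0.986), and Csf1r, the receptor for macrophage colony-stimulating factor (0.984). Among the other 9 subunit genes, r was 0.938 for Atp6v1a, 0.931 for Atp6v0c and 0.901 for Atp6v0b, but 0.468 for Atp6v1h and 0.257 for the isoform Atp6v0d2.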

How the data were processed

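RNA was measured in 12 libraries of BV2 cells in 4 groups of 3, grouped by the treatment labels and numbered by the sample titles. Libraries of polyA RNA were prepared with an Illumina TruSeq kit (v2), an unstranded method, and sequenced as single reads of 100 bases, per the labels' protocols. The authors deposited FPKM values per gene symbol, 1 table per experiment; the unit is not named in the sources used here and was read from the values. CASAVA 1.8.2, bcl2fastq, STAR 2.5.2a, featureCounts, DESeq2 1.14 and mm10 are named, with no role stated, per the submitters' processing notes. The gene annotation behind the counting is not given in the sources used here.

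Within each gene the values are whole multiples of a step, so the steps gave back whole reads for all 17838 genes above 0 (tolerance 0.0001 reads). They gave the depths and the limma-voom alternative. Because FPKM is scaled by each library's own total, abundant genes that change can shift all others slightly. On log2(FPKM + 1), limma 3.58.1 (R 4.3.3) was fitted to the 6 libraries of each experiment, for genes whose mean reached 1 FPKM, with Benjamini-Hochberg adjustment over all tested genes and a threshold of 0.05; fold changes on this scale understate the change of low genes. The difference of effects was an interaction over 12 libraries. Entries with repeated symbols (4) were left out. The fits were tested on simulated data with known changes and no pairing by number. In the knockdown setting they recovered 2 of 67 genes changed 1.25-fold, 53 of 67 changed 1.5-fold and 62 of 66 changed 2-fold. There were 16 false calls among 11155 genes. With the block 1 of 67, 49 of 67 and 63 of 66 were recovered, with 27 false calls. In the overexpression setting 5 of 67, 41 of 67 and 63 of 66 were recovered, with 9 false calls. With the block there 2 of 67, 41 of 67 and 63 of 66 were recovered, with 24 false calls. In each of these fits the false calls were a larger share of all calls than the threshold of 0.05, and a larger share with the block than without it.

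Deviations from the group means were correlated across genes between libraries that share a number: 0.397, 0.535 and 0.343 for the pairs 1, 2 and 3 of knockdown with scrambled control, and 0.800, 0.848 and 0.514 for those of overexpression with empty control. Each exceeded 0.1, so the number counts as a pairing, and values with it as a block are given where they change a call described here. Between libraries of different numbers the correlation ran from -0.360 to -0.035 in the knockdown experiment and from -0.752 to 0.156 in the overexpression experiment. Overexpression 3 with empty control 1, at 0.156, was thus also above that limit. The sample titles do not say what the number stands for. For the difference of effects only pump subunit genes are described.

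The 10 genes, the 15 lists and the alternatives were chosen with earlier results of these data known. Named were the 10 genes, Spi1, called pump subunits and accessory proteins, up to 4 called genes per other list, and the 5 genes most like Atp6v0d1, of which 1 is not reported here. Clcn4 was matched to Clcn4-2 and Adgre1 to Emr1. Promoter windows came from RefSeq (GRCm38.p6), gene positions from a RefSeq gene list, and strands and exon overlaps from GENCODE M21. Alternatives were pseudocounts of 0.1 and 5, no filter and a filter at 5 FPKM, median-of-ratios scaling, trend and robust options, the block, limma-voom, omission of each library, and, added after seeing the data, omission of both libraries numbered 2.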

Additional observations from a re-analysis of the deposited data

Results flagged for a closer look

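Atp6v1a, the catalytic A subunit gene, had effects that differed between the 2 experiments by a direct test. The overexpression effect minus the knockdown effect was 0.47 on the log2 scale (limma interaction over 12 libraries, Benjamini-Hochberg adjusted p = 0.0406). Its own effects were 0.02 in overexpression and -0.46 in knockdown. Nearly all of the difference is thus the knockdown effect, from the libraries of the knockdown call, and it is not a separate finding. As the manipulations were opposite, a gene that followed Spi1 in both would also show a difference. The call depended on single libraries, with adjusted p from 0.0255 to 0.110 when each was left out. Over the other alternatives that kept all libraries the difference was 0.46 to 0.56.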

How the results depend on the processing

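With the library number as a replicate block, the knockdown comparison called 5081 genes instead of 2945 and 8 of the 10 subunit genes instead of 5, the overexpression comparison 13 genes instead of 0, and the difference of effects 4658 genes instead of 543. Without both libraries numbered 2, an alternative chosen after seeing the data, the counts were 449 genes and 2 subunit genes (Atp6v0d1 and Atp6v1a) in knockdown and 80 genes in the difference. A pseudocount of 0.1 left 3 subunit genes called in knockdown, and a pseudocount of 5 moved the V0 minus V1 difference in overexpression to 0.07 from 0.10. Median-of-ratios scaling called 252 genes lower and 339 higher in the difference of effects, against 330 lower and 213 higher. Leaving out 1 library at a time gave 1458 to 2206 genes and 3 to 4 subunit genes in knockdown, 0 genes in overexpression and 109 to 575 genes in the difference; with 5 libraries in a fit, some loss is built in. The direction of a single gene turned only where its value was near 0 and did not pass. Over these omissions the overexpression log2 fold change ran from -0.15 to 0.17 for Atp6v0d1, -0.05 to 0.07 for Atp6v0b, -0.06 to 0.15 for Atp6v0c, -0.05 to 0.08 for Atp6v1a, -0.08 to 0.11 for Atp6v1b2, -0.04 to 0.07 for Atp6v1d and -0.04 to 0.08 for Atp6v1h. The knockdown value of Atp6v1h ran from -0.09 to 0.07 and its difference of effects from -0.05 to 0.11. Without both libraries numbered 2, Atp6v1d was at -0.01 in overexpression. Of single-gene values under alternatives, 435 kept direction and side of the threshold, 22 newly passed, 29 no longer passed and 24 turned. With 3 libraries per group, changes as small as those of most V1 genes may go uncalled.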
